A study of Mus musculus with 6 samples.

Results

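The genes described here are those of the amino acid response and of cytosolic tRNA charging, 38 listed genes chosen by name. The list was drawn up with earlier results of these same arrays in view, so the differences between genotypes given below describe the members and are no independent evidence that they move. Each gene was represented by its brightest probe set, by mean log2(intensity + 16) over the 6 arrays, among those that the platform annotation gives to that gene alone. Of the 38 genes, 37 were measured among 18193 genes in all. The expression of Pycr1, a proline synthesis enzyme, was not analysed here. The members are 12 cytosolic tRNA synthetases, 7 enzymes of serine, one-carbon, proline and asparagine synthesis, 5 amino acid transporters and 13 stress factors.

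The arrays measured transcripts of the dorsal telencephalon, the embryonic region that forms the cerebral cortex, at embryonic stage E14.5. Wild-type embryos (WT, 3 arrays) were compared with conditional knockouts (cKO, 3 arrays) of ESET, a histone H3 lysine 9 methyltransferase encoded by Setdb1, and the comparison asks which transcripts differ when it is deleted. Deletion in cKO was driven by Emx2Cre, a recombinase expressed from a gene of dorsal forebrain progenitors, so the dissected tissue also holds cells that the Cre does not reach. All embryos were labelled male and of C57BL\6 background, and each array is taken as 1 embryo. Whether the WT embryos carried Cre or floxed alleles is not given in the sources used here, nor is the position of the deleted part of Setdb1.

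Cells that run short of an amino acid, or that carry other stresses, phosphorylate the initiation factor eIF2. This lowers general translation but raises that of the transcription factor ATF4. ATF4 and its C/EBP partners bind composite C/EBP-ATF sites and induce genes that import amino acids, make them, and attach them to tRNA, along with regulators such as Chac1, Ddit3 and Trib3.

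Setdb1 itself read 1162, 1185 and 1033 on WT 1, 2 and 3 and 704, 696 and 500 on cKO 1, 2 and 3. Every cKO array lay below every WT array, and the log2 fold change was -0.83 (SE 0.17), and the Benjamini-Hochberg adjusted p from limma was 0.137. The arrays numbered 3 stood apart in both groups. Xist, the RNA of the inactive X chromosome, read 17294 on WT 3 and 8811 on cKO 3 against 34.1 to 59.0 on the other arrays, which goes against the male label. The Y-linked gene Eif2s3y read 22.2 on WT 3, 961 on cKO 3 and 1927 to 2186 elsewhere. Kdm5d and Uty, also Y-linked, read 10.2 and 19.1 on WT 3 and 663 and 385 on cKO 3. On the other arrays they read 909 to 1028 and 461 to 549. Array cKO 3 so read Xist and Y-linked genes together, and whether it holds RNA of more than 1 embryo was not tested. The summed intensity of 10 measured erythroid markers was 69515 on WT 3 and 74207 on cKO 3, against 11278 to 17253 on the others. Markers of the labelled tissue were present on all arrays: 9 of 10 listed dorsal telencephalon genes were measured, and their summed intensity was 45530 to 50234 in WT and 42973 to 51984 in cKO. Single markers are given beside the first results.

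Most of the listed genes read slightly higher in cKO, and a few read much higher. Slc7a3, a transporter of cationic amino acids, rose 7.97-fold in mean intensity. Chac1, which degrades glutathione, rose 4.09-fold, and Asns, the asparagine synthetase, rose 2.30-fold. These 3 of 37 members passed an adjusted p of 0.05 in the limma fit over all genes, and 0 members passed it in the other direction. In that fit, 0.385% of the 18193 genes were called higher and 0.242% lower. Every cKO array lay above every WT array for 17 members and below for 0, where 7.90% of all genes lay above and 7.64% below. At an unadjusted p under 0.05, 12 members were higher and 0 lower, where the shares of all genes were 5.17% and 4.39%. Log2 fold changes were above 0 for 34 of the 37 members and for 51.2% of all genes. Of the 34, Phgdh and Tars crossed to below 0 when arrays were centred on their medians. The median over the members was 0.27, against 0.0068 over all genes. Nothing is read from these counts, since the list was made with this contrast known.

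Leaving out both arrays numbered 3 left 35 of the 37 members above 0, with a median of 0.32. Of all 18193 genes, 9170 were then above 0. With 2 arrays a group, 0 members and 8 of all genes passed the threshold, all of them higher in cKO. In dissected tissue, more cells of a type and more RNA per cell cannot be told apart. Of 12 endothelium and pericyte markers, none at 0 on any array, 11 had a log2 fold change below 0 (median -0.32, 0 called). Their summed intensity was 3341 to 3774 in WT and 2478 to 2660 in cKO. For 6 of these 12 every cKO array lay below every WT array, where 7.64% of all genes did so. Of the 9 dorsal telencephalon markers 4 were above 0 (median -0.0053, 0 called). Emx2, whose gene also drives the Cre, was at -0.83 (SE 0.14, limma adjusted p = 0.0714). Eomes, of intermediate progenitors, was at -0.63 (SE 0.13) and Fezf2, of deep-layer neurons, at -0.54 (SE 0.16). For each of these 3 every cKO array lay below WT, while Neurod1 at 0.34 (SE 0.16) had every cKO array above. Emx1, Pax6, Lhx2, Neurod6 and Tbr1 overlapped between groups, at -0.0053, 0.09, 0.07, 0.20 and -0.21. Of 10 ventral telencephalon markers 7 were above 0 (median 0.12, 0 called), and Gad1 at 0.48, Lhx6 at 0.19 and the dim Nkx2-1 at 1.01 had every cKO array above WT. Their summed intensity was 3413 to 4879 in WT and 4197 to 4598 in cKO. The part of all these markers in the members' differences was not tested.

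**Figure D1:**
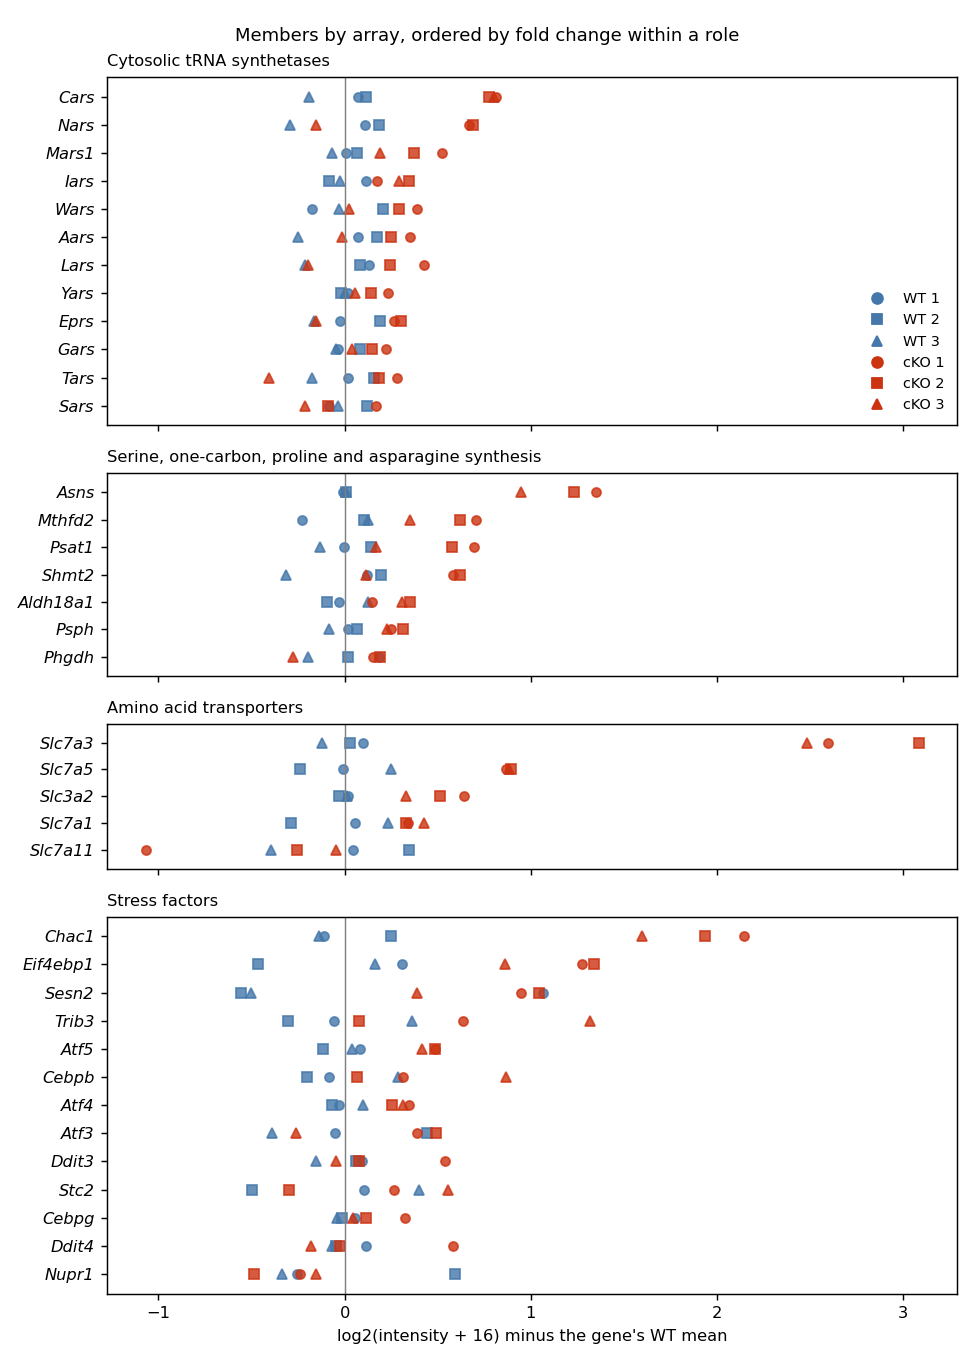
Each point is the log2(intensity + 16) of a member on an array minus that gene's mean over the 3 WT arrays, with members grouped by role and ordered by fold change; blue is WT, red is cKO, and the marker shape gives the array number. Slc7a3, Chac1 and Asns have their 3 cKO arrays well to the right of WT, and most synthetases have the cKO 3 triangle to the left of the other cKO points.

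The promoters of 12 members hold the sequence that ATF4 and its partners are known to bind. RefSeq promoters of 300 bases (250 before and 50 after the gene's start, assembly GRCm38.p6) were searched on both strands for TGATGNAA, the core of the C/EBP-ATF site. Of the 38 genes, 31 had a promoter in the table used here, matched by symbol. The core was found in 12 of these 31, or 38.7%, against 3.97% of all 32851 promoters and 4.51% of the 27025 genes with at least 1 promoter. The narrower TTGCATCA, whose reverse complement is 1 form of the same core and so overlaps it, was found in 9 of 31 members and 1.03% of all genes. The genes with the core were Aars, Gars, Iars, Yars, Tars, Pycr1, Asns, Slc7a11, Atf3, Trib3, Chac1 and Nupr1. A match is a description of these windows and not a measured binding site. The genes were listed by name as genes of this response, so their share with its site is no independent evidence.

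Among the 2 called members with a promoter entry, Asns and Chac1, both hold the core. Their sequences upstream of the start are printed here to show where it lies, 5′ to 3′ on the gene's strand with the match in capitals. Asns is at chr6:7693210-7693459 on the minus strand and Chac1 at chr2:119350992-119351241 on the plus strand. The leftmost base of the match is at -23 for Asns and -193 for Chac1, counted from the start as 0.
Asns: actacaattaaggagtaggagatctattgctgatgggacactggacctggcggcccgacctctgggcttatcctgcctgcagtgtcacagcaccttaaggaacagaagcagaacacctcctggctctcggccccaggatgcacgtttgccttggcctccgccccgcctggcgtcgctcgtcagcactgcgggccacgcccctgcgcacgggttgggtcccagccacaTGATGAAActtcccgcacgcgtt
Chac1: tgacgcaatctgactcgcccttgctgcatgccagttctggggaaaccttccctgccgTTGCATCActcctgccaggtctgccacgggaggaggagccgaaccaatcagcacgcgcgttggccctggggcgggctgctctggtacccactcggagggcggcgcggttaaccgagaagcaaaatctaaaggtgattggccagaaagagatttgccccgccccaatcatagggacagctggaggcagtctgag

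Short windows around the core set 2 synthetases whose WT and cKO arrays did not overlap, Yars and Iars, beside 2 members whose arrays overlapped, Trib3 and Slc7a11. They lie at chr4:129189896-129189923 (Yars, plus strand), chr13:49682127-49682154 (Iars, plus strand), chr2:152344029-152344056 (Trib3, minus strand) and chr3:50443662-50443689 (Slc7a11, minus strand). Slc7a11 has a further match at -47. The leftmost base of the match shown is at 3 for Yars, 7 for Iars, 14 for Trib3 and -66 for Slc7a11.
Yars: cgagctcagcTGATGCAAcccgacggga
Iars: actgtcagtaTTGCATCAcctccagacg
Trib3: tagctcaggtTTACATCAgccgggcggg
Slc7a11: ctcatgtggcTGATGCAAacctggagaa

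Among members with a promoter entry, the share with the core was no larger where the arrays lay apart. It was found in 4 of the 13 members in the table whose cKO arrays all lay above WT, or 30.8%, and in 7 of the 17 other measured members, or 41.2%. By role it was found in 5 of 8 synthetases, 2 of 8 synthesis enzymes, 1 of 3 transporters and 4 of 12 stress factors. These shares are over few genes and were not tested. Slc7a3, Eif4ebp1, Slc7a5 and Cars, at log2 fold changes of 2.72, 1.16, 0.88 and 0.80, also lay apart. They had no promoter entry, so the core was not sought in them.

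**Figure D2:**
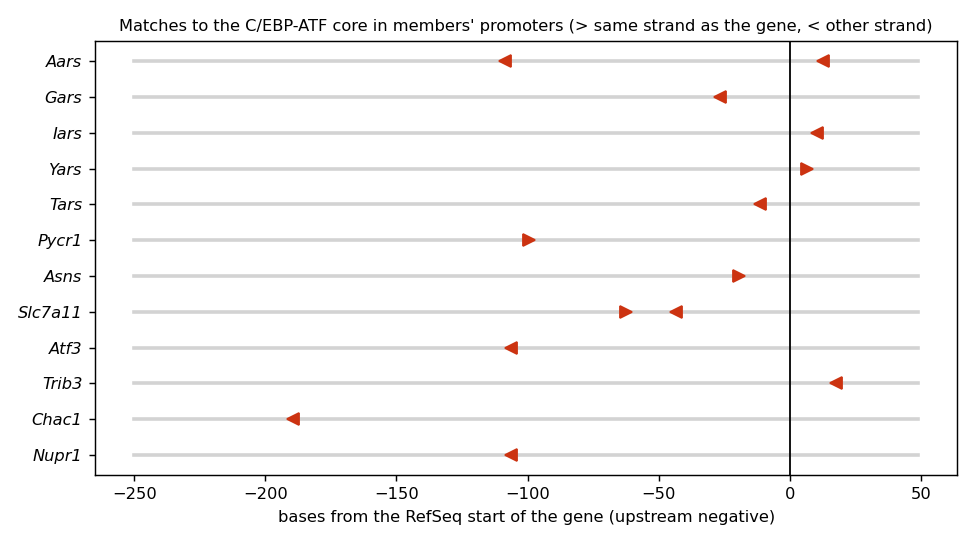
Each grey line is the 300-base promoter window of a member with at least 1 match to the C/EBP-ATF core, the x axis gives bases from the RefSeq start of the gene, and a triangle marks a match, pointing right where it is on the strand of the gene. Matches lie between the Chac1 match at -193 and the Trib3 match at 14, and Aars and Slc7a11 have 2 each.

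Of the stress factors, Chac1 had the largest difference. It read 110, 146 and 108 on WT 1, 2 and 3 and 586, 504 and 396 on cKO 1, 2 and 3. The lowest cKO value was above the highest WT value, and mean intensity was 121 ± 21.4 (SD, n = 3) in WT and 496 ± 95.2 (SD, n = 3) in cKO. The log2 fold change was 1.89 (SE 0.19, adjusted p = 0.0156 with limma). The call was lost without WT 1 (0.101), WT 3 (0.0683), cKO 1 (0.0818) or cKO 2 (0.0854), and without both arrays numbered 3 (0.155), where the log2 fold change was 1.97. The core in its promoter, shown above, lies far upstream of that in Asns.

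Eif4ebp1, an inhibitor of cap-dependent translation and a known ATF4 target, read 219, 121 and 196 in WT and 443, 464 and 328 in cKO. The groups did not overlap, and its log2 fold change of 1.16 (SE 0.25) did not pass the threshold (adjusted p = 0.150 with limma). The name of this probe set ends in _x_at, which marks probes that can bind related transcripts. The 2 other Eif4ebp1 probe sets, without that ending, were at 1.06 and 0.58, both without overlap. Atf5, a relative of ATF4 that is itself translated under stress, read 371, 321 and 360 in WT and 496, 497 and 472 in cKO. Its cKO arrays were all higher, by 0.46 on the log2 scale (SE 0.12, limma adjusted p = 0.234).

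Atf4 itself read 3433, 3353 and 3756 in WT and 4468, 4182 and 4369 in cKO. The cKO arrays all lay above WT, by 0.30 in log2 (SE 0.12, limma adjusted p = 0.464). A dimmer Atf4 probe set was at 0.52, from 1480 ± 272 (SD, n = 3) in WT to 2124 ± 366 (SD, n = 3) in cKO, also without overlap. ATF4 is controlled mainly through translation, which arrays of transcripts do not read. Ddit3, which encodes the stress factor CHOP, read 537, 525 and 451 in WT and 739, 532 and 486 in cKO. Only cKO 1 stood above all WT arrays, and the log2 fold change was 0.19 (SE 0.19, adjusted p = 0.861 with limma).

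The other 8 stress factors overlapped between groups. Sesn2, an inhibitor of mTORC1 signalling, read 120, 28.3 and 30.0 in WT and 110, 119 and 69.4 in cKO, so that WT 1 was the highest of the 6 arrays. Trib3, a pseudokinase induced by ATF4 and CHOP, read 39.1, 30.5 and 57.6 in WT and 73.0, 44.5 and 127 in cKO. Their log2 fold changes were 0.79 (SE 0.46) and 0.68 (SE 0.34). Cebpb was at 0.41, Atf3 at 0.21, Stc2 at 0.17, Cebpg at 0.16, Ddit4 at 0.12 and Nupr1 at -0.29. Atf3 and Nupr1 were dim on every array, at 6.57 to 25.5 and 2.41 to 22.9, where the pseudocount of 16 shrinks any difference. Ddit4 was high on cKO 1 alone, and without that array its log2 fold change was -0.10.

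Among the transporters, Slc7a3 had the largest difference of all members and ranked 24 of 18193 genes by log2 fold change. It read 76.9, 72.4 and 63.7 in WT and 508, 719 and 468 in cKO. The groups lay far apart, at 71.0 ± 6.73 (SD, n = 3) and 565 ± 135 (SD, n = 3). The log2 fold change was 2.72 (SE 0.19, adjusted p = 0.00409 with limma), and the call held when any 1 array was left out (0.0137 to 0.0324). Slc7a3 is X-linked, and on the arrays numbered 1 and 2 alone its log2 fold change was 2.78, with an adjusted p of 0.123 in limma.

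Slc7a5 and Slc3a2 encode the light and heavy chains of the large neutral amino acid exchanger LAT1. Slc7a5 read 812, 690 and 972 in WT and 1502, 1531 and 1517 in cKO. The cKO arrays agreed closely and all lay above WT, by 0.88 in log2 (SE 0.15, limma adjusted p = 0.0869). Slc3a2 read 1684, 1633 and 1680 in WT and 2604, 2385 and 2096 in cKO. Here the WT arrays agreed closely, and the log2 fold change was 0.49 (SE 0.13, adjusted p = 0.240 with limma).

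Slc7a1, the main carrier of cationic amino acids in most tissues, read 2161, 1697 and 2447 in WT and 2632, 2611 and 2802 in cKO. All cKO arrays lay above WT, by 0.36 in log2 (SE 0.16, limma adjusted p = 0.570). Slc7a11, the cystine importer, was dim, at 35.2, 47.1 and 21.7 in WT and 7.67, 25.5 and 32.0 in cKO. Its groups overlapped and its log2 fold change was -0.46 (SE 0.32). Its promoter window holds the core on both strands, and whether the core bears on its level was not tested.

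**Figure D3:**
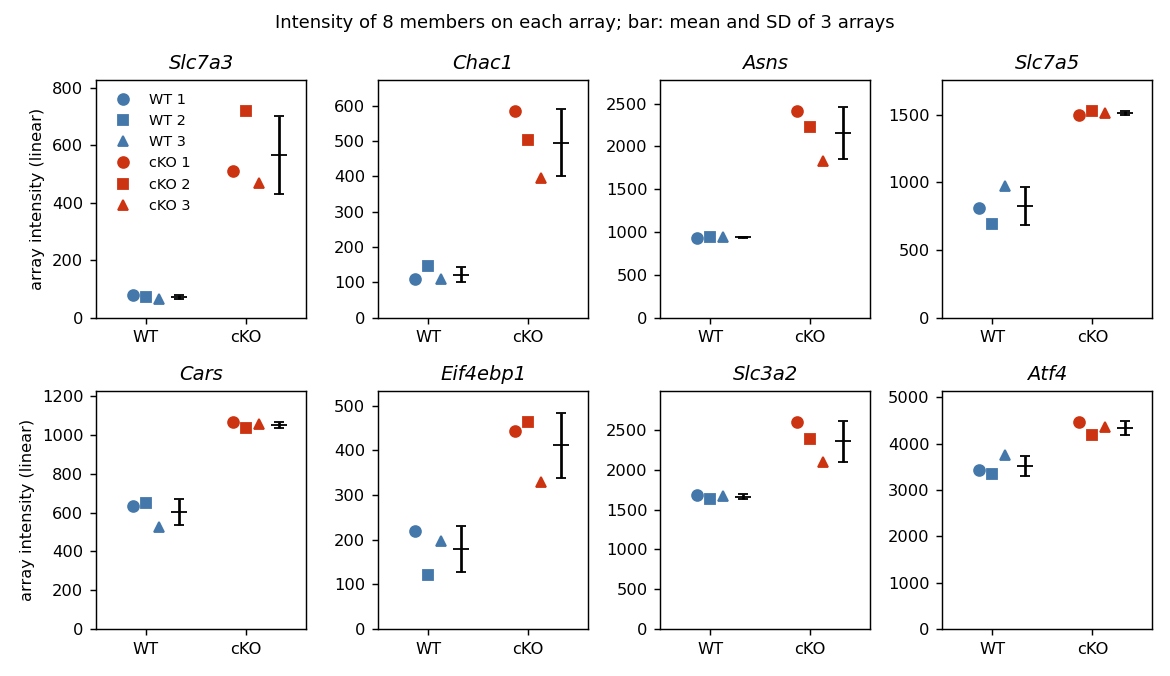
Deposited intensity (linear axis from 0) of 8 members on each of the 6 arrays, with the mean and SD of 3 arrays beside the points. In all 8 panels every cKO array lies above every WT array; the cKO arrays of Slc7a5 are between 1502 and 1531 and the WT arrays of Asns between 933 and 943.

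Asns led the synthesis enzymes. It read 933, 943 and 943 in WT and 2418, 2231 and 1829 in cKO. The WT arrays were nearly equal, at 940 ± 5.45 (SD, n = 3), and cKO was at 2159 ± 301 (SD, n = 3). The log2 fold change was 1.18 (SE 0.14, adjusted p = 0.0310 with limma). The call was lost when arrays were centred on their medians (0.0941), without both arrays numbered 3 (0.158), and without WT 1 (0.149), WT 2 (0.123), WT 3 (0.102), cKO 1 (0.118) or cKO 2 (0.135), while the log2 fold change stayed between 1.09 and 1.29. The other Asns probe set rose by 1.33, from 641 ± 86.7 (SD, n = 3) to 1634 ± 170.2 (SD, n = 3), and was the only probe set of a member outside the picked ones to be called over all 45037 probe sets (adjusted p = 0.0496 with limma), in a fit that called 0.224% of probe sets higher. In that wider limma fit the picked Asns probe set was at an adjusted p of 0.0622. The name of the other Asns probe set ends in _x_at, and that of the picked one does not.

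Mthfd2, a mitochondrial enzyme that oxidises one-carbon units, read 395, 503 and 510 in WT and 770, 724 and 600 in cKO, at a log2 fold change of 0.56 (SE 0.16). Psat1, the aminotransferase of the serine pathway, read 3970, 4385 and 3624 in WT and 6441, 5942 and 4475 in cKO, at 0.48 (SE 0.18). Neither group pair overlapped, though the margin of Psat1 was small, and cKO 3 was nearest to WT in both. The other Psat1 probe set, at 0.57 (SE 0.30), overlapped between groups. Psph, which releases serine in the last step, read 1408, 1460 and 1311 in WT and 1656, 1730 and 1632 in cKO, at 0.26 (SE 0.11). Aldh18a1, which makes the proline precursor from glutamate, read 3036, 2907 and 3389 in WT and 3444, 3967 and 3847 in cKO, at 0.27 (SE 0.13). Both were without overlap, Aldh18a1 by a narrow margin. Adjusted p values of these 4 enzymes ran from 0.302 to 0.598 (limma).

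Shmt2, which moves one-carbon units from serine to folate in mitochondria, read 883, 934 and 650 in WT and 1225, 1255 and 880 in cKO. Array cKO 3 lay among the WT arrays, and the log2 fold change was 0.44 (SE 0.21). Phgdh, the first enzyme of the serine pathway, was at 0.02 (SE 0.18), with overlapping groups of 3344 to 4360 in WT and 3168 to 4384 in cKO. All 4 Phgdh probe sets have names ending in _x_at, which marks probes that can bind related transcripts, and all 4 overlapped between groups.

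The synthetases attach amino acids to their tRNAs. Cars, for cysteine, read 632, 652 and 525 in WT and 1067, 1037 and 1059 in cKO. The groups lay well apart, and the log2 fold change of 0.80 (SE 0.13) missed the threshold (adjusted p = 0.0725 with limma). Mars1, for methionine, read 1623, 1695 and 1540 in WT and 2330, 2102 and 1848 in cKO, at 0.36 (SE 0.14, adjusted p = 0.456 with limma). Its cKO arrays all lay above WT, with cKO 3 the lowest of them. Iars, for isoleucine, read 2938, 2553 and 2661 in WT and 3061, 3454 and 3321 in cKO, at 0.27 (SE 0.12). Yars, for tyrosine, read 987, 960 and 975 in WT and 1147, 1077 and 1013 in cKO, at 0.14 (SE 0.12). Both were without overlap, though the margin of Yars was small. The other Iars probe set, at 0.25 (SE 0.24), overlapped between groups.

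The other 8 synthetases overlapped between groups. Nars, for asparagine, read 2352, 2481 and 1772 in WT and 3476, 3522 and 1957 in cKO, with cKO 3 within the WT range and a log2 fold change of 0.40 (SE 0.27). Aars was at 0.20, Lars at 0.16, Eprs at 0.14, Gars at 0.13 and Sars at -0.05. Sars turned to 0.02 without the arrays numbered 3. Tars was at 0.02 and turned to -0.03 with arrays centred on their medians. Wars, for tryptophan, was at 0.23 on its brightest probe set, and its 3 other probe sets were at -0.16, -0.03 and -0.07, so its direction depended on the probe set.

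Genes of the neighbouring pathways were read from 7 lists, and 0 of their measured genes passed the threshold in limma. The 10 measured of 11 other cytosolic synthetases and scaffold proteins had a median of -0.06, with 2 above 0, against 0.18 and 11 of 12 for the listed synthetases. The 2 with the smallest p were the scaffold protein Eef1e1 at 0.22 (SE 0.12) and Hars, for histidine, at -0.19 (SE 0.12). Of 16 measured mitochondrial synthetases, 6 were above 0 and the median was -0.03, with Aars2 at -0.69 (SE 0.21) and Wars2 at 0.34 (SE 0.11). These other synthetases lay near the median of all genes. The listed synthetases were chosen with this contrast known, so nothing is read from the gap between the lists, which was not tested.

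Upstream of ATF4, the 13 measured genes of eIF2 kinases and their regulators, eIF2B subunits and eIF2 phosphatase subunits had a median of 0.04, with 9 above 0. The eIF2B subunit Eif2b1 was at -0.28 (SE 0.14) and the phosphatase subunit Ppp1r15b at 0.17 (SE 0.14). Of 16 genes of the unfolded protein response of the endoplasmic reticulum, another response that can engage ATF4, 12 were above 0, the median was 0.07 and the range was -0.23 to 0.37. The chaperones Dnajb9 and Hyou1 were at 0.37 (SE 0.13) and 0.20 (SE 0.13). Among 8 measured mitochondrial stress genes 4 were above 0, with a median of -0.02. The protease Oma1 was at -0.60 (SE 0.14), and the hormone gene Fgf21 at 0.70 (SE 0.24) was dim, at 4.61 to 10.48 in WT and 10.8 to 30.6 in cKO.

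The other amino acid transporters came nearest to the members. Of 12, 10 were above 0, with a median of 0.10, and 8 without the arrays numbered 3. In 4 of the 12 every cKO array lay above WT, where 7.90% of all genes did so. Slc1a5, a glutamine and neutral amino acid exchanger, read 130, 92.8 and 165 in WT and 248, 349 and 256 in cKO. Its groups did not overlap, and its log2 fold change was 1.06 (SE 0.23, adjusted p = 0.160 with limma). Slc6a9, the glycine transporter GLYT1, was at 0.58 (SE 0.16), also without overlap. Of 12 measured other enzymes of serine, one-carbon, proline, cysteine and alanine metabolism 4 were above 0, with a median of -0.09. Among them Cth, the cysteine-producing cystathionase, was at -0.32 (SE 0.14) and Glul, the glutamine synthetase, at 0.23 (SE 0.12).

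**Figure D4:**
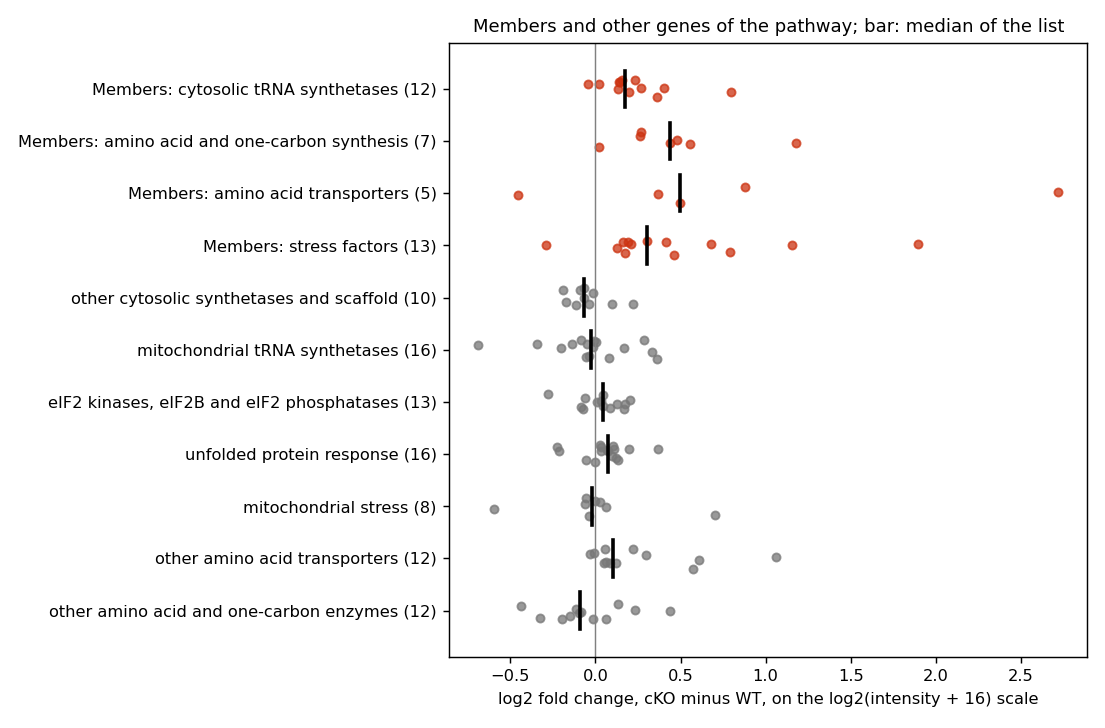
Each point is a gene's log2 fold change (cKO minus WT, log2(intensity + 16) scale), members in red and the other lists in grey, with the number of measured genes in brackets and a bar at the median of each list. Member medians are 0.18, 0.44, 0.49 and 0.30 from top to bottom, and those of the grey lists lie between -0.09 and 0.10. The members were listed with this contrast known, so nothing is read from the gap.

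Array cKO 3 was the lowest of the 3 cKO arrays for 26 of 37 members, or 70.3%, against 35.8% of all genes. This held for 10 of 12 synthetases and 6 of 7 synthesis enzymes, but for 2 of 5 transporters. Array WT 3 was likewise the lowest WT array for 20 of 37 members, or 54.1%, against 36.6% of all genes. Relative to the WT mean of each gene, the median of the synthetases was 0.32 on cKO 1, 0.27 on cKO 2 and 0.00 on cKO 3. That of the synthesis enzymes was 0.58, 0.58 and 0.23, that of the transporters 0.64, 0.51 and 0.43, and that of the stress factors 0.48, 0.11 and 0.39.

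These are the arrays that also carried high Xist and erythroid signals. Erythroid markers lay 1.95 above the other cKO arrays on cKO 3 and 1.72 above the other WT arrays on WT 3, as medians on the log2 scale. The listed synthetases lay 0.28 and 0.18 below on the same arrays, and the synthesis enzymes 0.34 and 0.13 below. The other cytosolic synthetases and scaffold proteins lay 0.14 and 0.07 below. Meninges and mesenchyme markers also lay 1.29 above on cKO 3 and 0.27 above on WT 3. Their summed intensities were 4185 and 3785 against 1448 to 2713 on the other arrays. Within these sums Zic1 alone read 1355 on cKO 3, 2702 on WT 3 and 638 to 1844 on the other arrays. Ventral telencephalon markers lay 0.89 above on WT 3 and 0.11 above on cKO 3. The unfolded protein response list lay 0.25 below on cKO 3 and 0.24 below on WT 3. The part of these other cell types in the offsets was not tested. Over the 6 arrays, after subtracting each group's mean, pairs of synthetases correlated at a median Pearson r of 0.75 (66 pairs) and pairs of synthesis enzymes at 0.60 (21 pairs). Pairs of stress factors were at a median of -0.01 (78 pairs) and pairs of transporters at -0.11 (10 pairs). These correlations are over 6 arrays that share each array's tissue and scaling, and are given as a description.

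**Figure D5:**
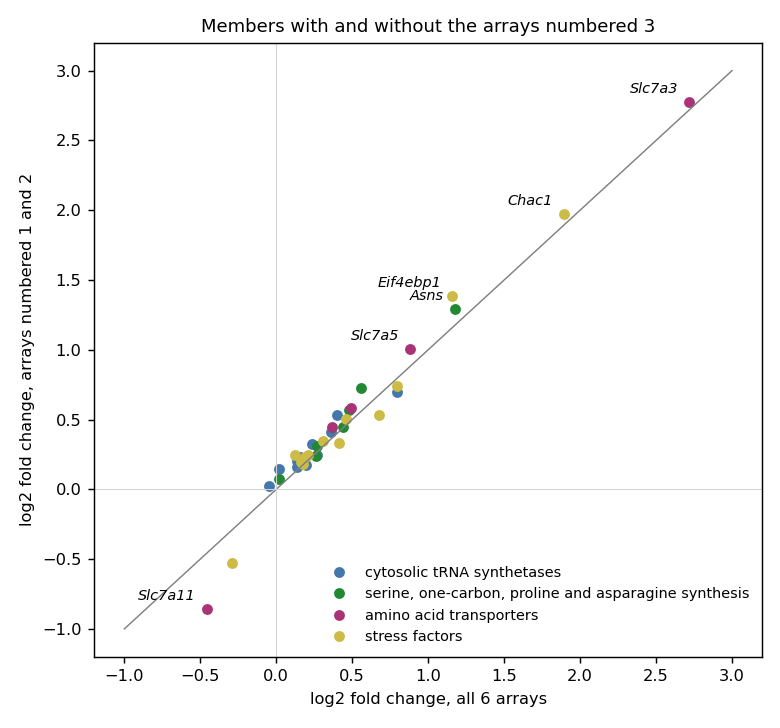
Each point is a member, with its log2 fold change over all 6 arrays on the x axis and over the arrays numbered 1 and 2 on the y axis; the diagonal marks equal values. The y axis uses a part of the arrays of the x axis, which by itself holds points near the diagonal. The members keep close to it. Slc7a3 is at 2.72 and 2.78, Chac1 at 1.89 and 1.97, Asns at 1.18 and 1.29 and Eif4ebp1 at 1.16 and 1.39. Slc7a11 moves from -0.46 to -0.86.

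Probe sets that the choice of the brightest did not take gave a further reading of the same RNA. The members had 77 probe sets in all, and 24 members had more than 1. Of the 40 not picked, 32 had the sign of the picked one and 31 were above 0. In 10 of the 40 every cKO array lay above every WT array, and in 0 below, where 7.47% and 6.07% of all 45037 probe sets did so. This is the contrast with which the list was made, so nothing is read from the counts. Among the 27 with a mean intensity of 100 or more in either group, 21 were above 0. Of all probe sets, with no limit on intensity, 53.1% were above 0. Shmt2, whose brightest probe set overlapped between groups, had another at 0.41 (SE 0.14) without overlap and 2 more at 0.08 and -0.13 with overlap, and the mean over its probe sets was at 0.20. The 4 other probe sets of Aldh18a1 were between 0.27 and 0.57.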

How the data were processed

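The deposited table holds linear intensities of 45037 probe sets on 6 single-colour arrays, produced by the Affymetrix Expression Console per the submitters' processing notes. No source used here gives its version or summary method. The mean after trimming extremes was 497.2 to 497.7 on every array, which shows that the arrays had been scaled alike, and medians ran from 91.1 to 119. No detection calls were used.

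From these, log2(intensity + 16) was computed, and log2 fold changes are cKO minus WT on that scale, which understates the change of dim genes. Probe sets given to 1 gene by the platform annotation (34945) were reduced to 18193 genes, and limma 3.58.1 in R 4.3.3 (lmFit, eBayes) was fitted with genotype alone, with Benjamini-Hochberg adjustment over all genes, two-sided, and a threshold of 0.05. The fit was tested on simulated data. The 3 arrays a group limit the precision, and p-values measure the spread between these arrays, which the design text describes as embryos but the labels tie to no animal.

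The members and all lists were chosen with earlier results of these data known. Values of all arrays are given for members past the threshold, members whose groups do not overlap, the 3 smallest p of each role, Atf4 and Ddit3, and a few others chosen after their values were seen (Slc7a11, Shmt2, Nars, Trib3, Sesn2 and the transporter Slc1a5). Dorsal and ventral telencephalon markers whose groups do not overlap were also named after their values were seen, while those of endothelium and pericytes are given as a count. From each other list the 2 genes with the smallest p are named. Some listed genes and markers are not reported here, and counts give the genes measured. The results were recomputed after quantile normalization, with centring on medians, without dim genes, with pseudocounts of 1 and 64, trend and robust eBayes, no _x_at or _s_at probe sets, means of probe sets, the replicate number as a block, the arrays numbered 3 as a term or left out, and each array left out.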

Additional observations from a re-analysis of the deposited data

How the results depend on the processing

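The members' median log2 fold change stayed between 0.22 and 0.33 under every alternative. Counts moved more. Members called higher, 3 as reported, were 5 without dim genes (over 29 members, with Slc7a3 among those left out), 5 with a pseudocount of 64, 6 with trend and robust eBayes, 0 with the replicate block, 0 without the arrays numbered 3, and 1 to 3 with 1 array left out. Genes called higher, 70 as reported, were 45 with a pseudocount of 1, 126 with 64, 135 with trend and robust eBayes, 16 with the replicate block, 8 without the arrays numbered 3 and 25 to 44 with 1 array left out. Genes called lower, 44 as reported, were 95 without dim genes, 13 and 90 with pseudocounts of 1 and 64, 109 with trend and robust eBayes, 19 with means of probe sets, 1 with the replicate block, 0 without the arrays numbered 3 and 1 to 9 with 1 array left out. At an unadjusted p under 0.05 the fit without the arrays numbered 3 held 1779 genes and that with the replicate block 2197. Leaving arrays out leaves fewer samples; otherwise the cause was not tested.

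Cars and Slc7a5 were called without dim genes (limma adjusted p = 0.0120 and 0.0159), with a pseudocount of 64 (0.0255 and 0.0304) and with trend and robust eBayes (0.0122 and 0.0126), and Eif4ebp1 without dim genes (0.0383) and with trend and robust eBayes (0.0453). Asns was also lost with a pseudocount of 1 (0.0624). With the replicate block, adjusted p was 0.137 for Asns, 0.0903 for Chac1 and 0.0540 for Slc7a3. Arrays sharing a number are not stated to share a litter. Their deviations from the group means correlated at 0.07, 0.17 and 0.37 for numbers 1, 2 and 3, and WT 1 correlated best with cKO 2, so the number was not treated as a pairing.

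Signs turned for small differences. Without _x_at and _s_at probe sets, Nupr1 was at 0.13 and Wars at -0.16, and with means of probe sets Wars was at -0.0056. With centring, Phgdh was at -0.029 and Tars at -0.030, and without the arrays numbered 3 Sars was at 0.021. With 1 array left out, Ddit4 ran from -0.10 to 0.28, Nupr1 ran from -0.46 to 0.0043, Phgdh ran from -0.079 to 0.17, Sars ran from -0.15 to 0.039, Stc2 ran from -0.076 to 0.41 and Tars ran from -0.11 to 0.23. None of the turned values was called. Signal over background limits Atf3, Nupr1 and Slc7a11.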
